A study of Mus musculus with 26 samples.

Results

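A set of 9 genes that regulate apoptosis was followed in mouse endothelial cells exposed to interferon gamma (IFNγ) in living tumours. The genes were Fasl, Casp8, Cflar, Traf5, Bcl2, Bok, Apaf1, Mdm2 and Trp53, and a gene was represented by every array probe set annotated with its symbol alone. Of the 9 listed genes 8 had such probe sets, 110 in all, among 5109 genes and 53857 probe sets in the table. Trp53 was not analysed here. Of the 8 genes 6 lie on chromosome 1 (Fasl, Casp8, Cflar, Traf5, Bcl2 and Bok) and Apaf1 and Mdm2 lie on chromosome 10.

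Expression was measured on 26 Affymetrix arrays of cells sorted for CD31 and CD146 from female mice, in 9 groups of 2 to 5 arrays. MCA313-IFNγ-IND tumours grew in PIG x Pdgfb-Cre x IFNγ-del animals aged 4 to 6 months, in which Pdgfb-Cre restricts the IFNγ receptor to endothelial cells, and were sampled at 0 h (3 arrays), 24 h (2 arrays) and 48 h (2 arrays) after the tumour cells were induced to make IFNγ. J558L-IFNγ-GFP-IND tumours grew in Rag-/- mice of the same age, which carry the receptor on all cells and have no mature T or B cells. Endothelium came from the tumour at 0 h (2 arrays) and 24 h (3 arrays) of an IFNγ-GFP fusion protein and from the kidney at 0 h (3 arrays) and 24 h (3 arrays). The 16.113 tumours grew in Rag-/- mice aged 3 to 4 months and were sampled 120 h after transfer of tumour-specific T cells that could make IFNγ (IFNγ+/+, competent, 3 arrays) or could not (IFNγ-/-, deficient, 5 arrays). Both 16.113 groups received T cells, so the transfer is common to both. The labels do not say whether arrays came from separate animals, and p-values therefore measure only the spread between these samples.

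Apoptosis starts along 2 routes. In the extrinsic route a ligand such as FasL engages a death receptor, which gathers and activates caspase-8, and c-FLIP (the product of Cflar) competes for the same complex. In the intrinsic route proteins of the BCL-2 family decide whether the outer mitochondrial membrane is permeabilized, after which Apaf1 assembles the caspase-activating apoptosome. The p53 protein, held low by Mdm2, switches on genes of both routes, and IFNγ signalling is known to alter several death genes in many cell types.

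Values are log2 expression values per probe set, so that a difference of 1 is a 2-fold change. The tumour arrays of each model and the kidney arrays form 4 sets that appear to have been normalized separately, and levels were compared only within a set. Of the 110 probe sets 99 were kept, because they exceeded the array's median in at least 2 arrays. The kept share was 2 of 6 for Fasl, 10 of 11 for Casp8, 20 of 20 for Cflar, 10 of 14 for Traf5, 5 of 7 for Bcl2, 6 of 6 for Bok, 31 of 31 for Apaf1 and 15 of 15 for Mdm2. The brightest probe set stood for the gene. Ifi205, an interferon-inducible gene, rose in each of the 5 comparisons with a control group (log2 change 1.46 to 4.28), and the endothelial gene Pecam1 differed by -0.12 to -0.04. The 4 of 13 endothelial markers that were measured exceeded the array medians in all groups, but they did not all hold level. Sele, which encodes E-selectin, differed by -1.61, -2.24, -1.64, 0.03 and -1.26 in MCA313 at 24 h, MCA313 at 48 h, J558L tumour, kidney and 16.113, and passed at 48 h (adjusted p = 0.0249). Among T and NK cell markers 8 of 20 were measured, and 0 to 2 of these were below the array medians in a group. No kidney epithelial marker and no erythroid marker was measured.

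Bok, a proapoptotic member of the BCL-2 family related to Bax and Bak, was the 1 gene of the 8 that passed the test. It fell in endothelium of J558L tumours after 24 h of IFNγ-GFP and in endothelium of 16.113 tumours with IFNγ-competent T cells. In the other settings it was also lower but did not pass. The upstream window of Bok is shown because it belongs to the gene with the clearest change, and a stretch around the Cflar start is shown because it holds the only match among the 8 genes to the motif shown. Both come from RefSeq (GRCm38.p6). The Bok window covers the 250 bases before the annotated start (chr1:93685325-93685574, plus strand) and has 12 CpG dinucleotides and a GC content of 55.2%. The Cflar stretch runs from 70 bases before to 20 bases after its start (chr1:58711421-58711510, plus strand), with the match in capitals.
Bok: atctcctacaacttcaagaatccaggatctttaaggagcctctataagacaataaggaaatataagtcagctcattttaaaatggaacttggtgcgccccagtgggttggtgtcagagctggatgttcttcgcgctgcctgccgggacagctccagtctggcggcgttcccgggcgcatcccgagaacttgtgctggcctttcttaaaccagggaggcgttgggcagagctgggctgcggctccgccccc
Cflar: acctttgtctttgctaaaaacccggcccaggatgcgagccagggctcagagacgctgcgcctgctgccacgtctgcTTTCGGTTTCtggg
The motif shown, searched on both strands, was GAAA followed by any 2 bases and GAAA, the core of the element that interferon regulatory factors recognise. Of the 8 windows of 300 bases around a start, it was in the Cflar window, on the minus strand and beginning 6 bases downstream of the start, and in none of the other 7. It was in 3.443% of all 32851 such windows. A match is a string of letters and no measured binding site, and these windows are a small part of each gene's regulatory sequence.

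In J558L tumour endothelium the Bok values at probe set 17216068 were 11.30 and 11.40 at 0 h and 9.91, 10.22 and 10.04 at 24 h. The groups did not overlap, and every 24 h array was more than 1 log2 unit below both 0 h arrays. Bok fell by 1.29 ± 0.27 (SE), or 2.45-fold with a 95% interval of 1.65 to 3.64 (limma, adjusted p = 0.0274). It was 1 of the 8 members past the test there, against 0.547% of all 4386 genes tested (0.182% past it and lower). The call was lost when any 1 of the 5 arrays was left out (adjusted p = 0.0585 to 0.250), with changes from -1.38 to -1.22. In these bulk samples fewer cells with Bok RNA and less Bok RNA per cell cannot be told apart. Cell-type markers differed between the same arrays. The summed signal of the 4 endothelial markers, on the log2 scale, was 15.16 to 15.20 at 0 h and 14.85 to 14.94 at 24 h. Marker sums add unlogged values, so the brightest markers weigh most. Sele (means 12.51 and 10.87) and Selp (12.94 and 12.41) were lower, while Pecam1 (13.95 and 13.91) and Icam2 (12.90 and 12.91) differed little. The sum of 5 fibroblast and pericyte markers was 11.76 to 12.02 and 12.29 to 12.36 (5 of 5 higher, median change 0.65, 0 past the test). The T and NK cell sum was 10.50 to 10.61 and 11.05 to 11.20, with 4 of 8 markers higher (median change -0.0046) and 0 past the test. Among the higher ones was Ccl5, with means of 9.20 and 10.45, which weighed most in the 24 h sum. The 4 lower ones were Cd247, Cd28, Ctla4 and Slamf7. None of these 3 sums overlapped between 0 h and 24 h. Of the 4 plasma cell and B cell markers 2 were higher and 2 lower, and Irf4 passed (2.90 ± 0.52 higher, adjusted p = 0.00956). Sdc1 (means 8.64 and 8.55) and Prdm1 (13.13 and 12.89) were the 2 lower ones. The part of these differences in the Bok result was not tested.

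In 16.113 endothelium Bok was at 10.33, 10.11 and 9.74 with competent T cells and at 11.01, 10.82, 11.09, 10.91 and 11.24 with deficient T cells. The highest competent array lay below the lowest deficient one. Bok fell by 0.96 ± 0.22, or 1.94-fold with a 95% interval of 1.42 to 2.66 (adjusted p = 0.00989). It was again 1 of 8 members past the test, against 7.36% of all genes (4.81% past it and lower). The call was lost without competent replicate 3 (adjusted p = 0.0723), with array weights (0.104) and in a fit of the 16.113 arrays alone (0.0717). Summed T and NK cell marker signal was 11.21 to 12.33 on the log2 scale with competent T cells and 10.58 to 11.02 with deficient ones. Of the 8 markers 6 were higher and 2 lower, and 0 passed the test. Ccl5 weighed most in this sum, with means of 11.40 and 10.10. The summed endothelial signal was 14.30 to 14.74 and 14.64 to 14.97, with 4 of 4 markers lower and 0 past the test. Its means were 11.14 and 12.40 for Sele but 13.51 and 13.55 for Pecam1. Of the 4 plasma cell and B cell markers Irf4 rose by 2.51 (adjusted p = 0.00111) and Sdc1 fell by 0.94 (adjusted p = 0.0392). The part of these differences in the Bok result was not tested.

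In MCA313 endothelium, where no other host cell carries the receptor, Bok was at 11.81, 11.22 and 11.11 at 0 h, at 10.53 and 10.03 at 24 h and at 10.26 and 11.00 at 48 h. Neither induced group overlapped the 0 h group, although the higher 48 h array (11.00) came close to the lowest 0 h array (11.11). The change was -1.10 ± 0.27 at 24 h (adjusted p = 0.0624) and -0.75 ± 0.27 at 48 h (adjusted p = 0.216), both measured against the same 0 h arrays. Neither passed, and 48 h minus 24 h was 0.35 ± 0.30 (adjusted p = 1.00). At 24 h Bok did pass with the stricter filter, with array weights and when a gene's probe sets were averaged (-0.85, adjusted p = 0.0290 in that setting). The summed T and NK cell signal was 9.94 to 11.14 at 0 h, 12.26 to 12.29 at 24 h and 12.61 to 13.31 at 48 h. Ctla4 passed the test at both times (3.73 and 4.71 higher) and Ccl5 at 48 h (2.51 higher). Ccl5 weighed most in this sum, with means of 10.12, 11.90 and 12.64 at 0 h, 24 h and 48 h. Of the 8 T and NK cell markers 6 were higher and 2 lower at 24 h, and 4 higher and 4 lower at 48 h. Fcgr4, a myeloid marker, and Irf4 also rose at both times (3.67 and 3.33, and 3.39 and 3.04). Of the 5 myeloid markers 2 were higher and 3 lower at 24 h, and 3 higher and 2 lower at 48 h (medians -0.20 and 0.02). All 4 plasma cell and B cell markers were higher at 24 h, and 3 were higher and 1 lower at 48 h. The summed endothelial signal was 14.73 to 14.91 at 0 h, 14.65 to 14.70 at 24 h and 14.63 to 14.67 at 48 h. Within it the means at 0 h, 24 h and 48 h were 11.78, 10.17 and 9.54 for Sele and 11.96, 11.80 and 11.70 for Selp. They were 13.88, 13.82 and 13.76 for Pecam1 and 12.59, 12.77 and 12.87 for Icam2. The part of these differences in the Bok values was not tested.

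In kidney endothelium of J558L-bearing mice Bok was at 9.11, 9.60 and 9.92 at 0 h and at 9.05, 8.51 and 8.82 at 24 h. The groups did not overlap, but the nearest arrays were almost level (9.05 and 9.11). The change was -0.75 ± 0.24 (adjusted p = 0.116) and did not pass, except with array weights (adjusted p = 0.0403). Higher in kidney were 2 of 2 pan leukocyte, 6 of 8 T and NK cell and 4 of 5 myeloid markers (median changes 0.54, 0.16 and 0.31). So were 4 of 5 fibroblast and pericyte and 3 of 4 endothelial markers (0.27 and 0.03). None of these markers passed the test. The part of these differences in the kidney values of the members was not tested. The tumour response minus the kidney response was -0.54 (95% interval -1.31 to 0.22, adjusted p = 0.999), so a difference between the sites was not shown, and the interval reached as far as -1.31. The MCA313 response at 24 h differed from the J558L tumour response by 0.19 (-0.61 to 1.00), and the 16.113 response by 0.34 (-0.39 to 1.07), with adjusted p-values of 0.999 and 0.944. These 3 differences share J558L arrays.

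**Figure D1:**
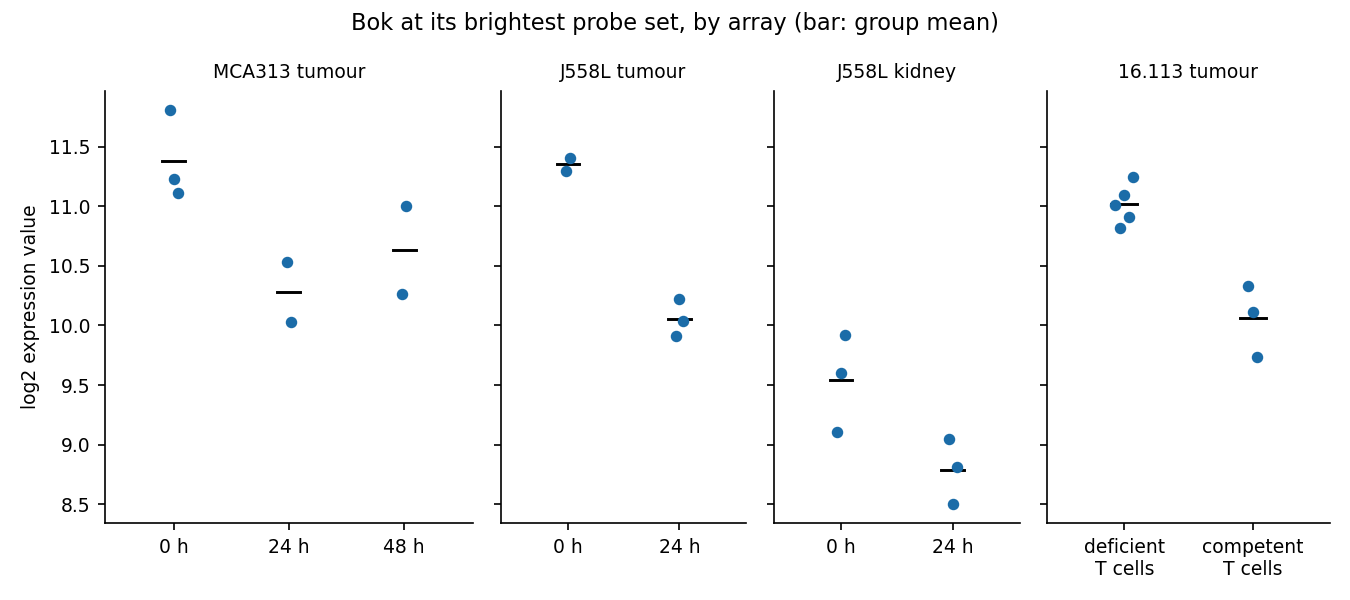
Log2 expression value of Bok at probe set 17216068 in each of the 26 arrays, in 4 panels by separately normalized set, with dots for arrays and bars for group means. In each panel the IFNγ-exposed arrays lie below all control arrays, with the widest gap in J558L tumour (11.30 against 10.22) and the narrowest in kidney (9.11 against 9.05).

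Bok was lower than its control in all 5 comparisons, as were 13.2% of all genes. Non-overlapping lower values were found in 15.8%, 17.6%, 16.4%, 12% and 5.79% of all genes in MCA313 at 24 h, MCA313 at 48 h, J558L tumour, kidney and 16.113, so in groups this small the lack of overlap alone was common. The 6 Bok probe sets were lower in 6 of 6 cases in both MCA313 comparisons and in J558L tumour and in 5 of 6 in kidney and 16.113, with medians of -0.85, -0.60, -0.95, -0.48 and -0.47. Lower values without overlap were found at 5, 2, 5, 3 and 2 of the 6, beside 18.5%, 18.9%, 16.5%, 11.4% and 4.85% of all probe sets. Probe sets 17216068 and 17216069 had the largest changes in each comparison except MCA313 at 48 h, where 17216067 (-0.72) lay between them (-0.75 and -0.66). At 17216069 the 16.113 values were 8.22, 8.25 and 7.53 with competent and 9.46, 8.75, 9.37, 9.52 and 9.95 with deficient T cells, a change of -1.41 ± 0.26 (adjusted p = 0.00540 over 39400 probe sets). The smallest changes in 16.113 were 0.07 ± 0.33 at 17216065 and -0.24 ± 0.24 at 17216064, so the probe sets of the gene did not move alike there.

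Genes whose pattern was most like that of Bok were found by Pearson correlation over the 26 arrays after subtracting the mean of each set. They were Atp2b4, a plasma membrane calcium pump (r = 0.91), Abhd17a, a depalmitoylating enzyme (r = 0.88), and Anxa6, a calcium-dependent membrane-binding annexin (r = 0.88). All 3 fell in 16.113 (-1.17, -0.78 and -0.93, adjusted p = 0.00329, 0.00428 and 0.0107), and Atp2b4 fell in kidney (-0.94, adjusted p = 0.0448) and Anxa6 in MCA313 at 48 h (-1.13, adjusted p = 0.0394). In J558L tumour, where Bok fell, none of the 3 passed (-1.15, -0.58 and -0.88, adjusted p = 0.0774, 0.279 and 0.200). The arrays share groups, so these correlations describe this likeness only. The 3 genes were picked by likeness to Bok over the same arrays, and their p-values do not allow for that choice.

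No other member passed the gene test in any of the 9 comparisons, which called 0.684%, 1.37%, 0.547%, 3.17% and 7.36% of all genes in MCA313 at 24 h, MCA313 at 48 h, J558L tumour, kidney and 16.113. The calling rate was 0.0684% for 48 h minus 24 h, 0.0228% for tumour minus kidney response and 0% for both other differences of responses, and in these 4 comparisons 0 members had an unadjusted p under 0.05 (3.78%, 4.79%, 2.99% and 6.27% of all genes in 48 h minus 24 h, tumour minus kidney, MCA313 minus J558L and 16.113 minus J558L). At an unadjusted p under 0.05 limma found 2 of the 8 members in MCA313 at 24 h and 2 at 48 h (Bok and Bcl2 both times), and Bok alone in J558L tumour, kidney and 16.113. The corresponding shares of all genes were 10.9%, 12.8%, 8.14%, 13.7% and 21.5%. The median change of the 8 members was -0.05, -0.13, 0.01, 0.09 and 0.15, beside -0.01, -0.02, -0.01, 0.01 and -0.03 over all genes.

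**Figure D2:**
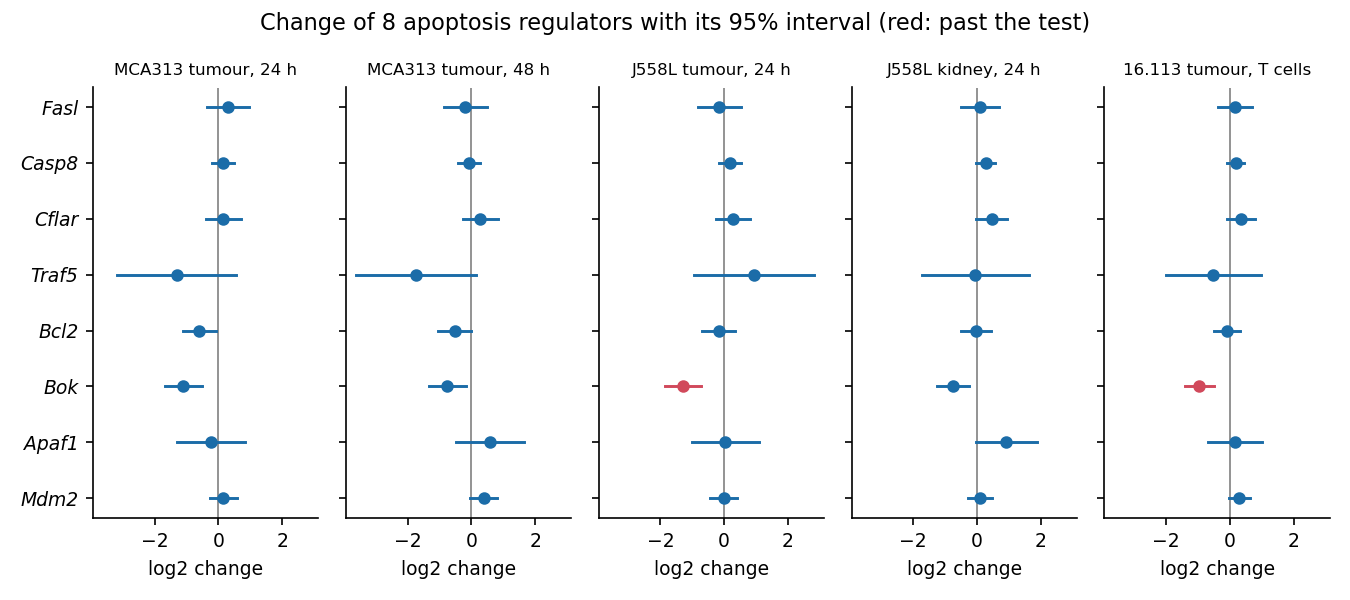
Log2 change of each of the 8 members at its brightest probe set (dots) with its 95% interval (lines) in 5 comparisons, each against its control, in red where the adjusted p was under 0.05. The red points are those of Bok in J558L tumour and 16.113, and the Traf5 intervals are the widest, reaching from -3.61 to 0.14 in MCA313 at 48 h.

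Fasl encodes the ligand that triggers the death receptor Fas. At its brightest probe set, 17228867, its group means lay between 7.77 and 8.35, and the changes were 0.30 ± 0.32, -0.19 ± 0.32, -0.15 ± 0.32, 0.09 ± 0.29 and 0.15 ± 0.26 in MCA313 at 24 h, MCA313 at 48 h, J558L tumour, kidney and 16.113. In each of these 5 comparisons the groups overlapped, and none passed. The 48 h values in MCA313 (7.98 and 7.56) lay below the 24 h values (7.99 and 8.54) without passing (adjusted p = 1.00). The other kept probe set, 17228869, was dimmer. In 16.113 it stood at 6.61, 5.07 and 6.16 with competent and at 3.57, 5.22, 3.69, 5.08 and 4.92 with deficient T cells. That overlapping difference of 1.45 ± 0.43 missed the threshold (adjusted p = 0.0645). The filter kept this probe set only through arrays of the higher group, so the p-value is no support for a difference. T cells, which were transferred into these mice, are a known source of Fasl RNA, whose share in these samples was not tested.

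Casp8, the initiator caspase activated at death receptors, was among the members with the smallest errors. At probe set 17213221 its changes were 0.14 ± 0.17, -0.08 ± 0.17, 0.18 ± 0.17, 0.27 ± 0.15 and 0.18 ± 0.13 in the same order. The kidney values, 12.20, 12.15 and 12.18 at 0 h and 12.49, 12.34 and 12.51 at 24 h, did not overlap, yet the change did not pass (adjusted p = 0.457). Non-overlap towards higher values held for 10.7% of all genes there. The upper 95% bounds were between 0.27 and 0.58, so a change of 1 lay above all 5 intervals. Of its 11 probe sets 9, 6, 10, 10 and 8 were higher, and 0 passed the probe-set test in any of these comparisons (2 had an unadjusted p under 0.05 in kidney and 2 in 16.113).

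Cflar, which lies beside Casp8 on chromosome 1 and encodes the caspase-8 inhibitor c-FLIP, was higher over nearly all of its probe sets. Its brightest probe set, 17213196, was at 11.60, 12.11 and 11.65 (0 h), 12.09 and 11.79 (24 h) and 12.02 and 12.12 (48 h) in MCA313. It was at 11.78 and 12.42 (0 h) and 12.43, 12.21 and 12.48 (24 h) in J558L tumour and at 12.64, 12.52 and 12.14 (0 h) and 12.66, 13.02 and 13.01 (24 h) in kidney. In 16.113 it was at 12.26, 11.89 and 12.73 with competent and 11.88, 12.35, 12.00, 11.91 and 11.60 with deficient T cells. Only the kidney groups did not overlap, and higher values without overlap held for 10.7% of all genes there. The changes at this probe set, 0.15 ± 0.26, 0.28 ± 0.26, 0.28 ± 0.26, 0.46 ± 0.23 and 0.34 ± 0.21, did not pass (adjusted p = 0.354 to 0.957). A gene that was higher in all 5 comparisons was no rarity, at 10.9% of all genes.

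Over its 20 probe sets Cflar was higher in 18, 19, 19, 20 and 20 in MCA313 at 24 h, MCA313 at 48 h, J558L tumour, kidney and 16.113, with median changes of 0.51, 0.48, 0.53, 0.48 and 0.74. Among the 2801 genes with at least 5 kept probe sets, 5.64%, 5.82%, 7.78%, 9.93% and 3.96% had at least 90% of them higher in these comparisons, and 0.857% did so in all 5. Probe sets of a gene share its RNA and its arrays and are no replicates, and the MCA313 comparisons share their control arrays. The brightest probe set had the smallest change of the 20 in 16.113 (0.34, beside a highest of 1.73 at 17213204). Averaging the probe sets therefore gave 0.79 in 16.113, which passed (adjusted p = 0.00392), whereas the same average gave 0.52, 0.45, 0.52 and 0.53 in the other comparisons, where it did not pass.

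In 16.113 the probe-set test called 3 of the 20 Cflar probe sets, all higher, against 4.04% of all probe sets (1.34% higher and 2.7% lower). Probe set 17213201 was at 9.97, 10.88 and 10.38 with competent and 9.48, 8.97, 9.33, 9.49 and 8.85 with deficient T cells, and rose by 1.18 ± 0.22 (adjusted p = 0.00555). Probe set 17213200 was at 10.34, 10.45 and 10.14 against 9.33, 9.42, 9.99, 9.49 and 9.31, and rose by 0.80 ± 0.18 (adjusted p = 0.0174). Probe set 17213204 was at 8.17, 8.62 and 8.01 against 7.39, 6.06, 4.66, 6.93 and 7.64, and rose by 1.73 ± 0.46 (adjusted p = 0.0382). None of the 3 overlapped between the groups, and the deficient arrays spread widely at the last one. The same 3 probe sets differed by 0.39 to 0.64 in MCA313 at 24 h, 0.40 to 0.80 at 48 h, 0.46 to 0.61 in J558L tumour and 0.24 to 0.45 in kidney without passing. Their 16.113 response exceeded the J558L tumour response by 0.34, 0.57 and 1.17, with adjusted p-values of 0.911 to 0.942. No Cflar probe set passed in the other 4 comparisons, where 5, 3, 4 and 2 had an unadjusted p under 0.05. Non-overlapping higher values were found at 11, 10, 13, 6 and 5 of its 20 probe sets, beside 11%, 12%, 12.4%, 8.64% and 2.92% of all probe sets.

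**Figure D3:**
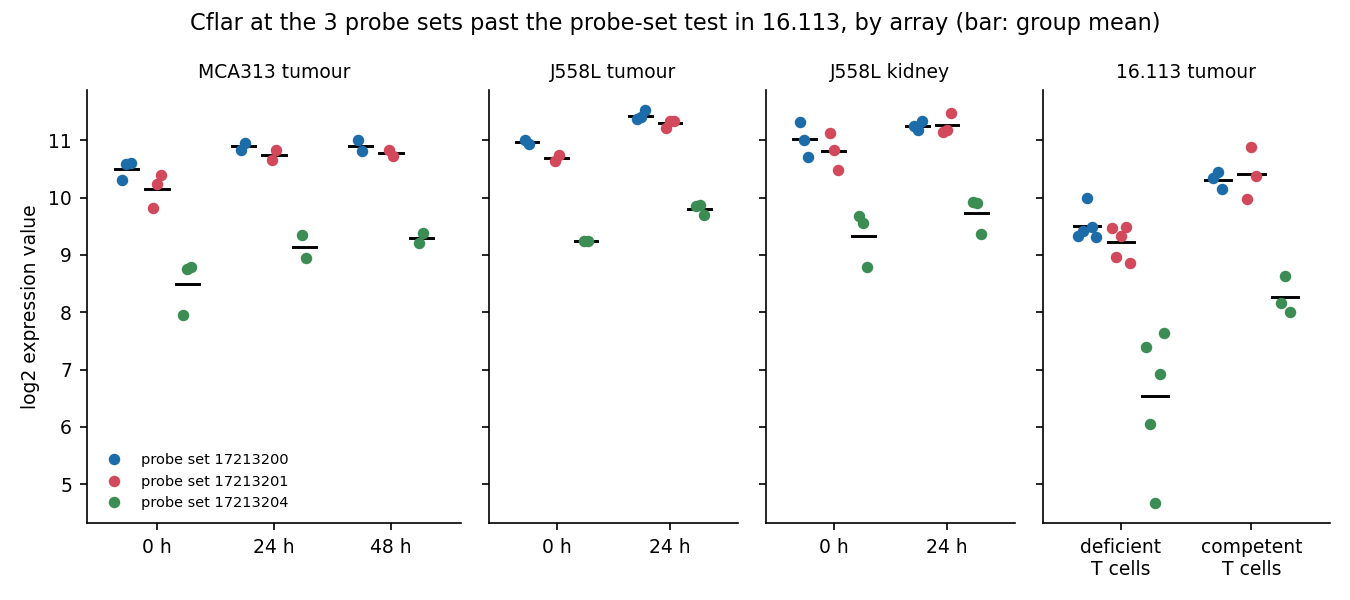
Log2 expression value in each array at the 3 Cflar probe sets past the probe-set test in 16.113, in 4 panels by separately normalized set, with colours for probe sets and bars for group means. In 16.113 the competent arrays lie above the deficient ones at each probe set, and at 17213204 the deficient arrays range from 4.66 to 7.64.

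Traf5, an adaptor of receptors of the tumour necrosis factor family, did not pass in any comparison and was measured unevenly in MCA313 and 16.113. At probe set 17231112 its MCA313 values were 8.19, 7.84 and 7.76 at 0 h, 7.10 and 6.13 at 24 h and 4.42 and 7.97 at 48 h. In 16.113 they were 7.47, 4.61 and 8.96 with competent and between 6.86 and 8.16 with deficient T cells. Single arrays at 4.42 and 4.61 were far below the others of their groups. In J558L tumour it was at 7.72 and 7.54 at 0 h and at 8.42, 8.93 and 8.33 at 24 h. The 24 h values were higher without overlap (0.74 to 1.04 over the left-out arrays), as were 12.4% of all probe sets. In MCA313 the 24 h arrays were lower than 0 h without overlap, as were 18.5% of all probe sets. Standard errors were 0.72 to 0.90, and the changes of -1.31, -1.73, 0.93, -0.06 and -0.51 did not pass (adjusted p = 0.445 to 0.984). Of the 14 probe sets 6, 6, 10, 5 and 5 were higher.

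Bcl2, the founding antiapoptotic member of its family, was lower in MCA313 endothelium without passing. At probe set 17226048 it was at 10.43, 10.30 and 10.46 at 0 h, 10.14 and 9.47 at 24 h and 10.08 and 9.67 at 48 h. The groups did not overlap, and the changes were -0.60 ± 0.25 and -0.52 ± 0.25 (adjusted p = 0.367 and 0.385). In J558L tumour, kidney and 16.113 they were -0.17 ± 0.25, -0.04 ± 0.22 and -0.09 ± 0.20, with overlapping groups. Of the 5 kept probe sets 5, 4, 4, 4 and 4 were lower. Lower values without overlap were found at 4, 3, 2, 0 and 0, beside 18.5%, 18.9%, 16.5%, 11.4% and 4.85% of all probe sets. The lowest changes were -1.18 and -0.91 in MCA313 (17226047), -0.77 in J558L tumour (17226045) and -0.89 in kidney (17226044), none past the probe-set test. In 16.113 17226045 fell by 1.39 ± 0.35 (adjusted p = 0.0301 in that test). It went from 8.27, 8.61, 7.87, 8.60 and 8.11 with deficient to 8.01, 5.99 and 6.69 with competent T cells. The competent array at 8.01 overlapped the deficient group, and the brightest probe set showed no such difference.

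Apaf1, the scaffold of the apoptosome, had 31 probe sets that pointed mostly upwards in 3 comparisons. Of these 15, 24, 28, 29 and 16 were higher in MCA313 at 24 h, MCA313 at 48 h, J558L tumour, kidney and 16.113, with medians of -0.02, 0.38, 0.46, 0.50 and 0.06. At the brightest, 17244165, the kidney values were 12.24, 11.01 and 10.67 at 0 h and 11.91, 12.61 and 12.18 at 24 h, which overlapped. The change there was 0.92 ± 0.45 (adjusted p = 0.374), and in the other comparisons it was -0.24 ± 0.51, 0.59 ± 0.51, 0.04 ± 0.51 and 0.16 ± 0.41. The kidney change passed when the probe sets were averaged (0.62, adjusted p = 0.0440).

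One Apaf1 probe set passed the probe-set test in kidney, where 1.32% of all probe sets passed (0.683% higher). At 17244158 the values were 8.48, 8.55 and 8.07 at 0 h and 9.85, 9.38 and 10.00 at 24 h, without overlap. Higher values without overlap were found at 8.64% of all probe sets there. Probe set 17244158 rose by 1.38 ± 0.29 (adjusted p = 0.0197), a call lost without kidney 0 h replicate 3 or without 24 h replicate 1 or 3. In MCA313 the same probe set was at 8.64, 8.59 and 8.47 at 0 h, 8.39 and 9.41 at 24 h and 9.46 and 9.48 at 48 h, a difference of 0.90 ± 0.33 at 48 h that did not pass (adjusted p = 0.289). In 16.113 it was -0.25 ± 0.26. The J558L tumour response minus the kidney response at this probe set was -0.99 ± 0.44 (adjusted p = 1.00). The largest kidney change of all, 2.60 ± 0.89 at 17244145, did not pass and rested on 1 array at 2.89 at 0 h beside 8.66 and 8.49.

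Mdm2, the ubiquitin ligase that restrains p53, differed by 0.16 ± 0.20, 0.39 ± 0.20, -0.01 ± 0.20, 0.08 ± 0.18 and 0.30 ± 0.16 at probe set 17245250. In MCA313 it was at 11.12, 11.79 and 11.66 at 0 h and at 12.03 and 11.80 at 48 h. The lowest 48 h array lay just above the highest 0 h array, and 12% of all probe sets were higher without overlap there. In 16.113 Mdm2 was at 10.87, 11.12 and 11.08 with competent and between 10.51 and 10.95 with deficient T cells. There 1 deficient array lay within the competent range. None passed (adjusted p = 0.297 to 0.999). Of its 15 probe sets 10, 13, 7, 10 and 8 were higher, and in 16.113 they ran from -1.38 to 1.01.

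Over all members the probe-set test called 0 of 99 kept probe sets in both MCA313 comparisons and in J558L tumour, against 0.16%, 0.322% and 0.142% of all probe sets. It called 1 in kidney (1.01%, beside 1.32% of all probe sets) and 6 in 16.113 (6.06%, beside 4.04%). The 6 were the 3 of Cflar, higher, and 17216068 and 17216069 of Bok and 17226045 of Bcl2, lower. At an unadjusted p under 0.05 the members had 14, 13, 14, 14 and 26 probe sets (14.1%, 13.1%, 14.1%, 14.1% and 26.3%), beside 9.25%, 10.4%, 5.94%, 11.4% and 18.5% of all. In 48 h minus 24 h 0 of the 99 passed and 2 had an unadjusted p under 0.05 (0.0254% and 5.11% of all probe sets). In the differences of responses 0 passed as well, and 3 (tumour minus kidney), 4 (MCA313 minus J558L) and 5 (16.113 minus J558L) had an unadjusted p under 0.05. All probe sets passed there at 0.00508%, 0.00254% and 0%, and had such a p at 4.57%, 2.96% and 5.96%.

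**Figure D4:**
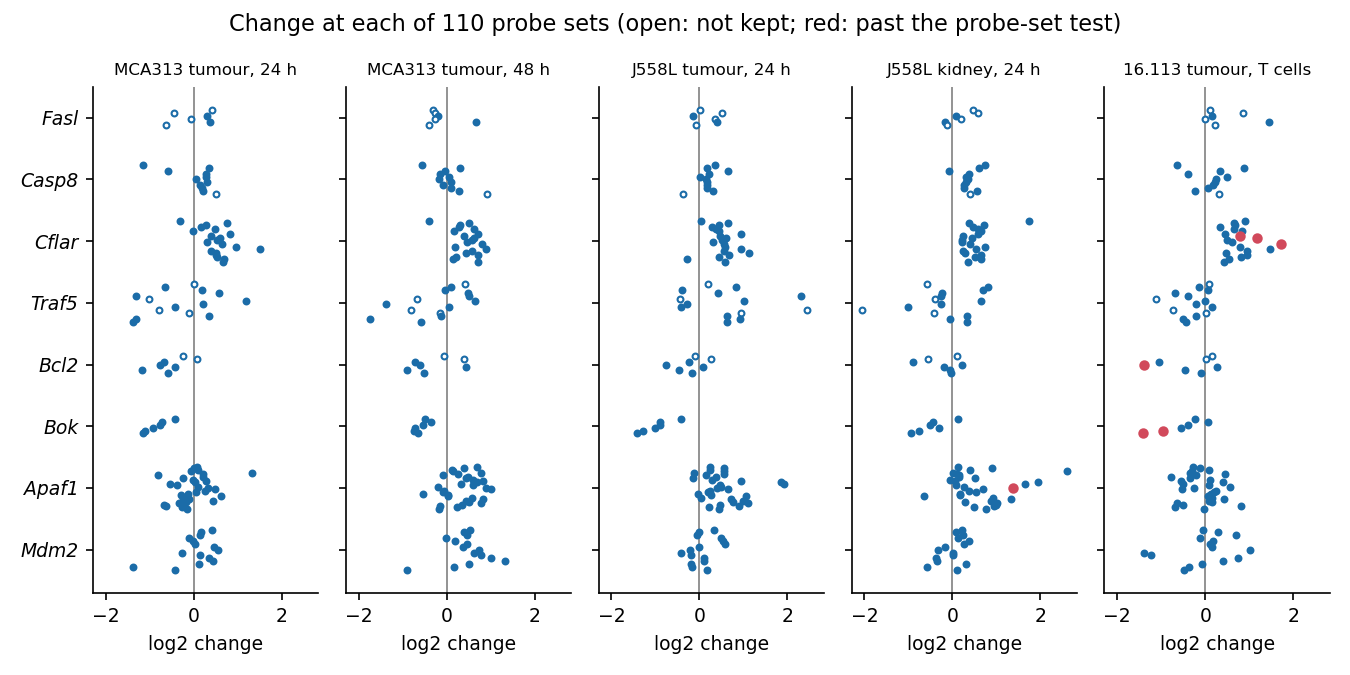
Log2 change at each of the 110 probe sets of the 8 members (dots) in 5 comparisons, each against its control, with open dots for probe sets not kept and red dots for those with an adjusted p under 0.05. The Cflar dots lie to the right of 0 in kidney and 16.113 without exception (20 of 20 in both), the Bok dots to the left in the MCA313 and J558L tumour panels (6 of 6 in each), and the dots of most other members lie on both sides of 0.

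Other genes of the same routes were read from 3 lists, and most of their members were outside the rows of the table. In the death receptor list 7 of 30 genes were tested and 0 passed in MCA313, J558L tumour or kidney. In 16.113 2 of the 7 fell, Siva1, a proapoptotic ligand of CD27 (-0.72 ± 0.18, adjusted p = 0.0177), and Traf4, a signalling adaptor (-1.35 ± 0.36, adjusted p = 0.0230). In 16.113 7.36% of all genes passed (4.81% past the test and lower). The medians of the list were 0.13, -0.17, -0.06, 0.24 and -0.16, beside -0.01, -0.02, -0.01, 0.01 and -0.03 over all genes. Traf4 gave the largest difference in each of the 5 comparisons (-1.20, -1.01, -0.87, 0.96 and -1.35).

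In the mitochondrial list 5 of 36 genes were tested, and those past the test were again in 16.113. That comparison called 7.36% of all genes. Birc5, which encodes the inhibitor of apoptosis and mitotic protein survivin, had values of 4.48 to 8.50 with competent and 8.88 to 9.62 with deficient T cells and fell by 3.11 ± 0.62 (adjusted p = 0.00428). Xaf1, an interferon-inducible antagonist of inhibitors of apoptosis, rose by 0.77 ± 0.17 (adjusted p = 0.00721), from 10.05 to 10.65 with deficient to 10.98 to 11.52 with competent T cells. Neither group pair overlapped, beside 4.85% of all probe sets lower and 2.92% higher without overlap in 16.113. In the other comparisons Birc5 was at -1.60, -2.93, -2.05 and -0.25 and Xaf1 at 0.56, 0.45, 0.58 and 0.65 without passing. The medians of the 5 genes were -0.61, -0.51, -0.27, -0.25 and -0.44, beside -0.01, -0.02, -0.01, 0.01 and -0.03 over all genes.

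In the list of p53 targets and regulators 13 of 31 genes were tested. Sesn1, a p53 target of the sestrin family, rose in MCA313 at 48 h (0.87 ± 0.19, adjusted p = 0.0261) and fell in kidney (-0.77 ± 0.17, adjusted p = 0.0148). Perp, a p53 target of cell adhesion and death, fell in 16.113 (-1.80 ± 0.48, adjusted p = 0.0249). The other 11 did not pass in any of the 5 comparisons. So 1 of the 13 passed in MCA313 at 48 h, in kidney and in 16.113, beside 1.37%, 3.17% and 7.36% of all genes. Ddit4, a stress-induced inhibitor of mTORC1 signalling, differed most in MCA313, by -1.58 ± 0.41 at 24 h and -1.50 ± 0.41 at 48 h (adjusted p = 0.0770 and 0.0714), from 10.33 to 10.79 at 0 h to 8.70 to 9.37 at 24 h and 8.86 to 9.37 at 48 h. The largest difference was that of Mdm4 in J558L tumour (0.71) and of Perp in kidney (-0.83) and 16.113. The medians were -0.26, -0.36, -0.07, -0.23 and -0.09, beside -0.01, -0.02, -0.01, 0.01 and -0.03 over all genes. Over the 3 lists together, therefore, the genes past the test were Siva1, Traf4, Birc5, Xaf1, Perp and Sesn1, with no list having more than 2 in a comparison.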

How the data were processed

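The deposited table gives log2 expression values per probe set as the authors computed them. The submitters' processing notes name limma and Affymetrix Expression Console. The method of normalization is not stated in them. With 65535 probe sets in identifier order, genes beyond the last were not analysed here. Exact values recurred between arrays of a set (1.24 to 7.59% of values) and hardly between sets (at most 0.00586%), which is why 4 separate normalizations were assumed. Array medians were 5.78 to 5.88 (MCA313), 6.42 to 6.46 (J558L tumour), 6.33 to 6.40 (kidney) and 5.62 to 5.79 (16.113). Background was not measured, and the number of arrays limits the precision.

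Probe sets with 1 gene symbol were used (766 had several and 10912 none). A gene was read at the probe set with the highest mean over 26 arrays and kept if it exceeded the array's 50th percentile in at least 2 arrays (4386 of 5109 genes). Means of 9 groups were fitted in limma 3.58.1 (R 4.3.3) with 9 contrasts, two-sided moderated tests and Benjamini-Hochberg adjustment at 0.05 over all genes, and likewise over 39400 kept probe sets. The same fit recovered 40 to 57% of 2-fold and 83 to 96% of 4-fold changes in data simulated for the 5 comparisons with a control group. In each simulation 200 of 4386 genes were changed, and a gene's spread was equal in all groups. The real comparisons called 24 to 323 genes. Where fewer genes change the adjusted threshold is harder to reach, so recovery can be lower there. The members and the lists were chosen with earlier results of these data known. All members are named, with single probe sets where they passed, were brightest or had the highest or lowest change, and genes of a list where they passed or changed most.

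Other settings tried were a block for the replicate number (with statmod 1.5.0), weights per array, a trended robust prior, averaging of probe sets, quantile normalization within sets, filtering at the 75th percentile or not at all, fits of the compared models alone, and leaving out each array. The search for another promoter motif is not reported here.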

Additional observations from a re-analysis of the deposited data

How the results depend on the processing

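No call was turned in direction by any alternative run, and the 2 Bok calls rested on few arrays. The count of members past the test in J558L tumour fell from 1 to 0 without any 1 of its arrays, and in 16.113 it ranged from 0 to 1 over the left-out arrays, was 0 with array weights and 0 in a fit of the 16.113 arrays alone, and was 2 with averaged probe sets (Bok and Cflar). In MCA313 at 24 h it rose from 0 to 1 (Bok) with the stricter filter, averaging or array weights, and in kidney from 0 to 1 with averaging (Apaf1) or array weights (Bok). For probe sets the count in J558L tumour rose from 0 to 1 with the trended robust prior, 3 with array weights and 1 in the J558L fit alone. In kidney it rose from 1 to 3 with array weights and 3 in the J558L fit, and was 0 to 2 over left-out arrays. In 16.113 it fell from 6 to 0 with array weights and 0 in the 16.113 fit, rose to 9 with the stricter filter and 9 with quantile normalization, and was 3 (without competent replicate 2 or 3) to 11 (without competent replicate 1). The causes were not tested. The replicate number as a block (fitted correlation -0.053) left the counts at 0, 0, 1, 0 and 1 members in MCA313 at 24 h and 48 h, J558L tumour, kidney and 16.113 and changed no call. Deviations of same-numbered arrays from their group means had correlations of -0.14 to 0.11. In a group of 2 arrays these deviations mirror each other, so the check cannot tell whether the numbers pair samples.

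Of 44 changes of single members, 7 values turned sign with all arrays kept, none of them past the test. Mdm2 in J558L tumour turned to 0.0042 with quantile normalization, 0.068 with averaging and 0.0072 with array weights, and Mdm2 and Apaf1 in 16.113 to -0.0041 and -0.063 with averaging. Casp8 in MCA313 at 48 h turned to 0.071 with averaging and Bcl2 in kidney to 0.0024 with array weights. With 1 array left out, signs turned 32 times, again for no change past the test, in the following results over the left-out arrays. In MCA313 at 24 h Mdm2 ran from -0.046 to 0.31, Apaf1 ran from -0.97 to 0.49. In MCA313 at 48 h Casp8 ran from -0.20 to 0.043, Traf5 ran from -3.51 to 0.044, Fasl ran from -0.40 to 0.020. In J558L tumour Apaf1 ran from -0.37 to 0.44, Cflar ran from -0.047 to 0.60, Bcl2 ran from -0.37 to 0.031, Casp8 ran from -0.023 to 0.38, Mdm2 ran from -0.12 to 0.092, Fasl ran from -0.42 to 0.10. In kidney Bcl2 ran from -0.17 to 0.035, Fasl ran from -0.19 to 0.33, Traf5 ran from -0.49 to 0.19, Mdm2 ran from -0.019 to 0.21. In 16.113 Bcl2 ran from -0.26 to 0.030, Traf5 ran from -1.49 to 0.69, Apaf1 ran from -0.14 to 0.35. Bok ranged from -0.020 to 0.72 for 48 h minus 24 h and from -0.056 to 0.44 for the MCA313 against the J558L tumour response. With 1 array left in a group, that array was assumed to vary like the others. At these group sizes 40 to 57% of simulated 2-fold changes were recovered, with 200 genes changed in each simulation.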
